A study of Homo sapiens with 27 samples.

Results

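The 8 genes described here encode, or in the case of B4GALNT1 build, molecules on the surface of neuroendocrine lung cancer cells that are targeted or proposed as targets of therapy. They are DLL3, SEZ6, NCAM1, CD276, SSTR2, B4GALNT1, CEACAM5 and CEACAM6. Their rows were found by matching the Ensembl gene IDs of the deposited tables to these symbols, and all 8 were present in both tables, among 34742 human genes for the siRNA libraries and 41686 for the shRNA libraries. All 8 also reached the mean of 10 normalized counts that a gene needed to be tested.

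All libraries came from SHP77, a single human small cell lung cancer line, and no normal lung cells were measured. For transient knockdown, cells were transfected for 72 hours with SOX2 siRNA 1 or 2, NKX2-1 siRNA 1 or 2 (n = 2 libraries each) or the control siRNA si-control (n = 3), and poly(A) RNA was sequenced. For stable knockdown, cells were infected with lentivirus carrying circRMST shRNA 1, circRMST shRNA 2 or the control hairpin shGFP (n = 2 libraries each), selected in 3 µg/ml puromycin for at least 3 days, and total RNA was sequenced. RMST is a long non-coding gene, and circRMST is a circle made from its transcript, which the series studies together with SOX2 and NKX2-1. The comparisons ask how far the RNA of each surface target depends on these 3 regulators.

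As background, small cell lung cancer of the neuroendocrine kind carries neuronal and neuroendocrine proteins on its surface that most normal adult tissue lacks, and antibodies, T cell engagers and radioligands are aimed at them. DLL3 is a Notch ligand that acts inside the cell as an inhibitor of Notch signalling. SEZ6 and NCAM1 (CD56) are neuronal membrane proteins, CD276 (B7-H3) is an immune checkpoint protein, SSTR2 is a somatostatin receptor, B4GALNT1 makes the gangliosides GM2 and GD2, and CEACAM5 and CEACAM6 are carcinoembryonic antigen family adhesion molecules best known from gut and adenocarcinoma.

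Recovered depth was 15486858 to 50098747 reads per siRNA library and 46850300 to 57352556 reads per shRNA library. The targeted genes were lower in the labelled libraries. SOX2 had 396, 389, 466 and 439 normalized counts with its siRNAs, against 1191, 1152 and 1084 in si-control, and NKX2-1 had 959, 1070.0, 836 and 796 with its siRNAs, against 2199, 2357 and 2145. SOX2 RNA was higher with NKX2-1 siRNAs than in si-control, by 1.94-fold (limma, adjusted p = 1.43e-14), and NKX2-1 RNA was higher with SOX2 siRNAs than in si-control, by 1.16-fold (adjusted p = 6.50e-04). The circle itself cannot be read from the RMST entry, which counts the whole gene. The summed level of NEUROD1, POU2F3 and YAP1, used as markers of small cell lung cancer subtypes and of which 2 had an entry, was 0 to 2.25 normalized counts in siRNA libraries. In the shRNA table it was 0 to 1.96 with circRMST shRNAs, where POU2F3 and YAP1 were at 0, against 41.8 and 74.0 in shGFP.

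The shGFP libraries stood apart at low levels. Of 1548 protein-coding genes with no read in any siRNA library, 14.7 to 20.5% had a read in the circRMST shRNA libraries, against 82.4% and 85.6% in the shGFP libraries. The mean of these genes was higher in shGFP by a median of 4.03 normalized counts, with a 99th percentile of 38.7. Markers of blood cells summed to 3.14 to 6.43 normalized counts with circRMST shRNAs and to 37.0 to 46.2 in shGFP, all 5 of 5 having reads in both. Fibroblast markers summed to 467 to 877 with circRMST shRNAs and 437 to 573 in shGFP, all 7 of 7 with reads, and endothelial markers to 147 to 179 against 395 to 397, all 3 of 3 with reads. LUM made most of the fibroblast sum with circRMST shRNAs, at 362 to 797 normalized counts against 97.8 and 121 in shGFP. The other fibroblast markers had lower means than in shGFP, PDGFRA at 71.4 against 286. In the siRNA table, fibroblast markers summed to 361 to 536 with SOX2 siRNAs (7 of 7 with reads), 209 to 242 with NKX2-1 siRNAs (7 of 7) and 145 to 165 in si-control (6 of 7, PDGFRB at 0). LUM and PDGFRA made most of these sums, and PECAM1 made most of the endothelial sums in both tables. Endothelial markers there summed to 75.1 to 136, 147 to 443 and 341 to 354 in the same order of groups, and blood markers stayed at or below 9.98, with 4 of 5 in the table, CD3E at 0 in all groups, PTPRC at 0 in SOX2 siRNA and si-control libraries and CD68 at 0 in si-control. The part of these differences in the results below was not tested.

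**Figure D1:**
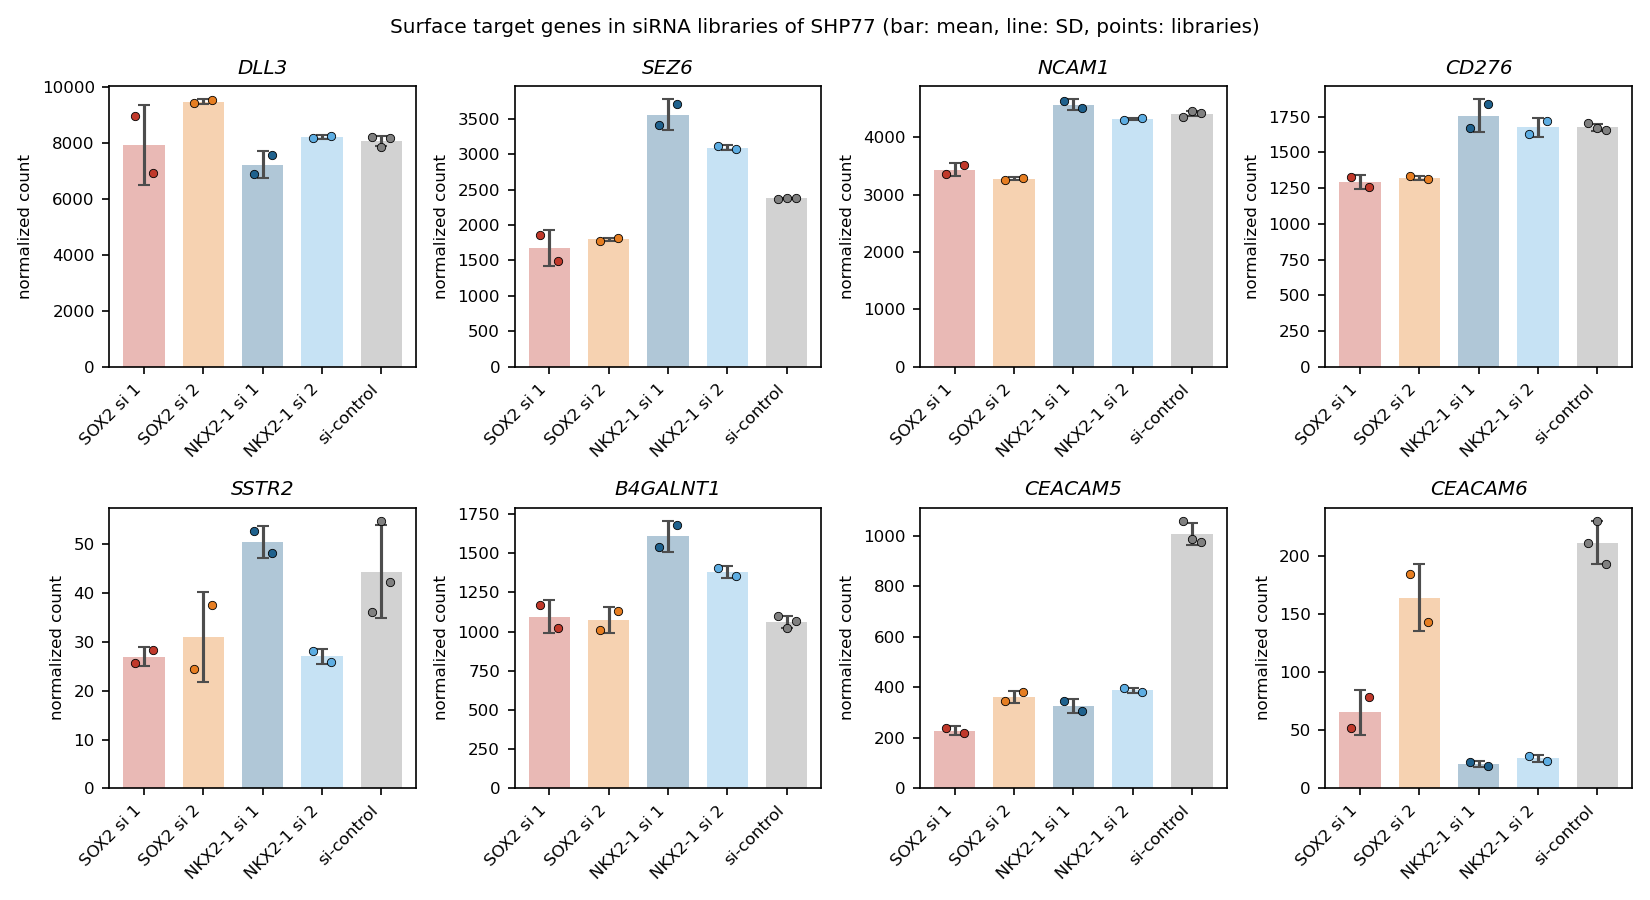
Normalized count of the 8 surface target genes in the 11 siRNA libraries, with a linear axis from 0, bars for group means, lines for the SD and points for libraries. CEACAM5 lies at 218 to 396 normalized counts in the 8 knockdown libraries, below si-control, while SEZ6 lies below si-control with SOX2 siRNAs and above it with NKX2-1 siRNAs.

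SOX2 knockdown lowered most of these targets. The largest fall was that of CEACAM5, at 3.48-fold, followed by CEACAM6 at 2.05-fold, and SEZ6, NCAM1 and CD276 fell by between 1.28-fold and 1.37-fold. DLL3 and B4GALNT1 did not pass the test. These are averages of both siRNAs. With SOX2 siRNA 2 alone CEACAM6 was not called, at a log2 change of -0.37, and DLL3 was called higher, at 0.23. In all, 6 of 8 genes passed as lower and 0 as higher (limma on log2 of the normalized count plus 1, adjusted p under 0.05 over 16750 genes, average of both siRNAs). Over all genes tested, 28.7% were called lower and 27.6% higher. The median log2 change was -0.43 for the 8 genes and 0.01 for all genes tested. No member passed as higher at an unadjusted p under 0.05, and edgeR and DESeq2 also called 0 higher. Without SOX2 siRNA 1 replicate 2, DLL3 was called higher, at a log2 change of 0.19.

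With NKX2-1 knockdown some targets fell and others rose. CEACAM6 fell 8.77-fold and CEACAM5 2.83-fold, while SEZ6 rose 1.39-fold and B4GALNT1 1.40-fold. DLL3, NCAM1, CD276 and SSTR2 did not pass the test. Thus 2 of 8 were called higher and 2 lower (limma, adjusted p under 0.05), where 18.5% of all genes tested were called higher and 21.4% lower. Both counts were near the background. At equal totals the same counts of members were called, and 25.2% of all genes were called higher and 15.8% lower. The median log2 change was -0.03 for the 8 genes and 0.00 for all genes. The SOX2 and NKX2-1 comparisons share the si-control libraries.

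Set directly against each other, SOX2 knockdown and NKX2-1 knockdown differed for 7 of 8 genes, with 2 higher and 5 lower in SOX2 siRNA libraries, where 55.8% of all genes tested were called. CEACAM6 was 4.27-fold higher with SOX2 siRNAs than with NKX2-1 siRNAs, and SEZ6 was 1.92-fold lower. B4GALNT1, NCAM1, CD276 and CEACAM5 were also lower with SOX2 siRNAs, by 1.37-fold, 1.32-fold, 1.31-fold and 1.23-fold. DLL3 was 1.12-fold higher (adjusted p = 0.00397 in limma), a call lost with DESeq2 (adjusted p = 0.0666) and with no filter on low values (0.167), and its SOX2 siRNAs differed from each other.

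circRMST knockdown raised SEZ6 (1.48-fold), B4GALNT1 (1.36-fold) and CD276 (1.16-fold). It lowered SSTR2 and, on average of both hairpins, CEACAM5 and NCAM1. The CD276 call held in 7 of 17 alternatives, and CD276 was not called with circRMST shRNA 1 alone, at a log2 change of 0.18. The count was 3 of 8 higher and 3 lower (limma, adjusted p under 0.05 over 19068 genes), where 27.8% of all genes tested were called higher and 25.9% lower. SSTR2, counted among the 3 lower, passed the filter on low values there only through shGFP, which fixed its direction. Without it the lower members were CEACAM5 and NCAM1. With libraries scaled to equal totals, 2 members were called higher and 4 lower, and 19.1% of all genes were called higher and 34.2% lower. The median log2 change was -0.06 for the 8 genes and 0.00 for all genes. The hairpins differed on 3 of 8 genes. NCAM1, CEACAM5 and CEACAM6 were higher with shRNA 1 than with shRNA 2, and for NCAM1 and CEACAM6 the hairpins moved the RNA in opposite directions from shGFP. Of all genes tested, 19.1% were called between the hairpins.

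**Figure D2:**
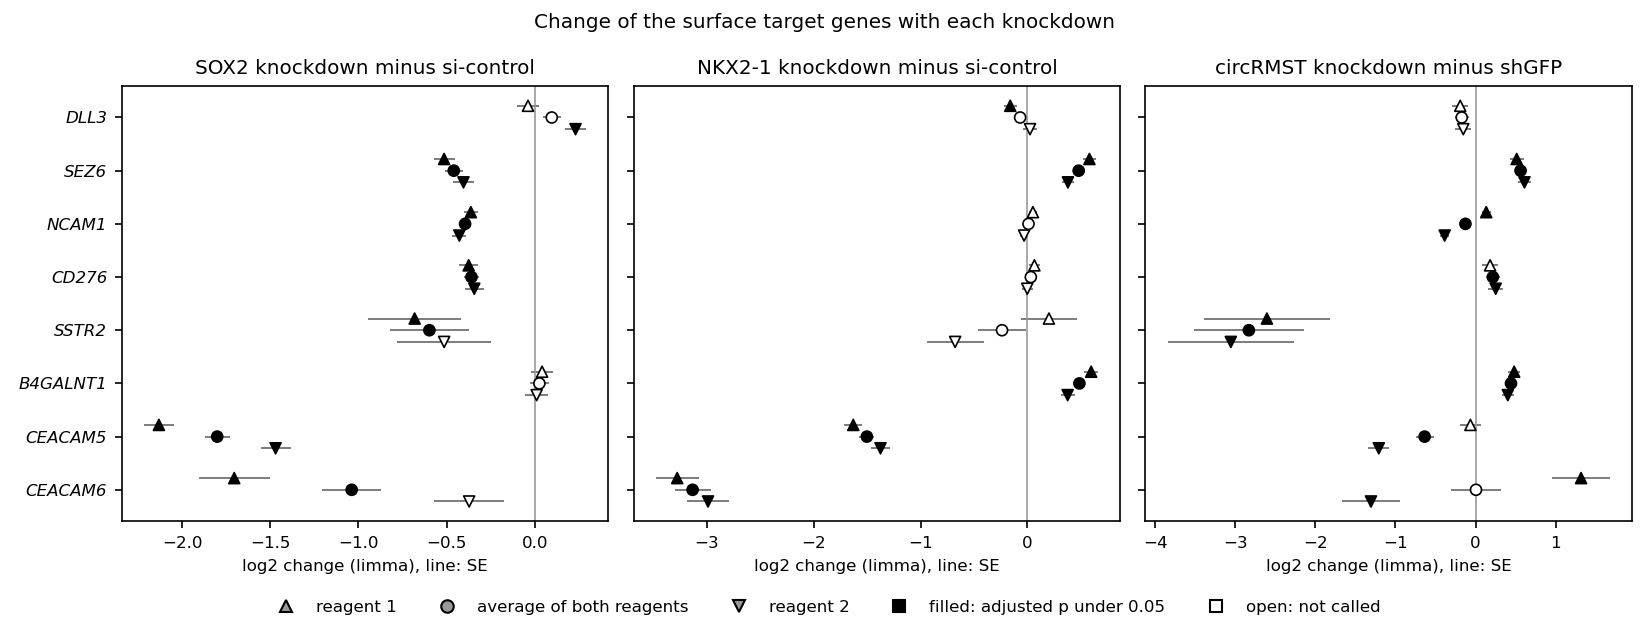
Log2 change of each gene against its control, with SE, for each reagent alone and for their average, filled where the adjusted p is under 0.05. The horizontal scale differs between the panels. CEACAM6 lies at 1.32 with circRMST shRNA 1 and at -1.31 with shRNA 2, whereas SEZ6 lies at 0.51 and 0.61.

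DLL3 (ENSG00000090932.10, GRCh38.p14 chr19:39498947-39508469, protein-coding) is the Notch ligand of the set. It had 8960.2 and 6922 normalized counts with SOX2 siRNA 1, 9438 and 9549 with SOX2 siRNA 2, 6896 and 7583 with NKX2-1 siRNA 1, 8177 and 8262 with NKX2-1 siRNA 2, and 8209, 7863 and 8185 in si-control. SOX2 siRNA 2 was above every other group, the libraries of SOX2 siRNA 1 lay on both sides of si-control, and NKX2-1 siRNA 1 was below si-control. The average log2 change was 0.10 ± 0.05 (SE) with SOX2 knockdown, with a 95% interval of -0.01 to 0.20, and -0.07 ± 0.05 with NKX2-1 knockdown, with an interval of -0.17 to 0.04 (limma, adjusted p = 0.107 and 0.303). The SOX2 siRNAs differed from each other by -0.27 ± 0.07 (limma, adjusted p = 0.00453). SOX2 siRNA 2 alone was called higher than si-control at 0.23 (adjusted p = 0.00242) and NKX2-1 siRNA 1 alone lower at -0.16 (adjusted p = 0.0373). Leaving out either SOX2 siRNA 1 library, which the NKX2-1 contrast does not use other than for the spread, brought the NKX2-1 adjusted p to 0.0491 and 0.0480.

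In the shRNA table DLL3 had 719.6 and 688 normalized counts with circRMST shRNA 1, 758 and 689 with shRNA 2, and 745 and 868 in shGFP. Knockdown and control libraries overlapped. The log2 change was -0.17 ± 0.09, with an interval of -0.36 to 0.01 (limma, adjusted p = 0.105). Without shGFP replicate 1 it was -0.28 and was called (adjusted p = 0.0393). With equal totals, which brought the median log2 change of all genes to -0.14, it was -0.32 (adjusted p = 0.00478), or -0.18 relative to that median, and with quantile normalization it was called at -0.24.

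Of the 11 Notch ligands and receptors, all were tested in each table, and 3 were called higher and 3 lower with SOX2 knockdown, 4 higher and 2 lower with NKX2-1 knockdown, and 1 higher and 5 lower with circRMST knockdown (limma, adjusted p under 0.05). Over all genes tested the shares higher and lower were 27.6% and 28.7%, 18.5% and 21.4%, and 27.8% and 25.9% for the same knockdowns, so that the SOX2 counts were near the background. NOTCH1 and NOTCH3 in the SOX2 comparison and NOTCH1 in the NKX2-1 comparison passed the filter only through si-control, and without them the SOX2 counts were 3 higher and 2 lower of 9. JAG1, a ligand that activates Notch in neighbouring cells, rose 1.52-fold with SOX2 knockdown. DLL4, another activating ligand, fell 1.39-fold with NKX2-1 knockdown. DLK1, a non-canonical ligand, fell 7.32-fold with circRMST knockdown, with 13.6, 21.5, 28.5 and 34.1 normalized counts in knockdown libraries against 148 and 209 in shGFP. NOTCH1, a receptor, had 5.24, 14.7, 14.7 and 15.5 normalized counts with circRMST shRNAs and 230.2 and 105 in shGFP.

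SEZ6 (ENSG00000063015.19, chr17:28954905-29006440), a neuronal membrane protein that takes part in dendrite and synapse formation, moved with every knockdown. It had 1853 and 1497 normalized counts with SOX2 siRNA 1, 1779.7 and 1815 with SOX2 siRNA 2, 3406 and 3709 with NKX2-1 siRNA 1, 3118 and 3067 with NKX2-1 siRNA 2, and 2374, 2375 and 2385 in si-control. The si-control libraries lay close together, all SOX2 siRNA libraries lay below them and all NKX2-1 siRNA libraries above. SEZ6 fell by 0.46 ± 0.05 on the log2 scale with SOX2 knockdown (limma, adjusted p = 1.11e-08) and rose by 0.48 ± 0.05 with NKX2-1 knockdown (adjusted p = 1.22e-08). SOX2 knockdown minus NKX2-1 knockdown was -0.94 ± 0.05 (adjusted p = 1.32e-15).

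With circRMST shRNA 1, SEZ6 had 1231 and 1178 normalized counts, with shRNA 2 1363 and 1218, and in shGFP 831 and 857. All 4 knockdown libraries lay above both controls, and the hairpins overlapped. The rise was 0.56 ± 0.08 on the log2 scale (limma, adjusted p = 1.15e-06). SEZ6 was called in all 17 alternatives, and at equal totals the rise was 0.42, or 0.56 relative to the median of all genes.

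The other genes of the SEZ6 family, SEZ6L and SEZ6L2, were also tested. With SOX2 knockdown 3 of 3 family members fell, SEZ6 itself among them, where 28.7% of all genes tested were called lower. SEZ6L fell 1.61-fold and SEZ6L2 1.43-fold. With NKX2-1 knockdown 2 of 3 rose, SEZ6 and SEZ6L (1.48-fold), where 18.5% of all genes were called higher. SEZ6L2 was not called there, at a log2 change of 0.05. With circRMST knockdown 3 of 3 rose, again with SEZ6 among them, where 27.8% of all genes were called higher. SEZ6L had 878, 855, 675 and 779 normalized counts with circRMST shRNAs, against 413 and 463 in shGFP, and SEZ6L2 had 2961, 2814, 2382 and 2319 against 1489.8 and 1860.4. The annotation places a long non-coding RNA across the whole SEZ6 gene, and its reads may be counted with SEZ6 because strand use in counting was not given.

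NCAM1 (ENSG00000149294.16, chr11:112961420-113278436), the neural cell adhesion molecule also known as CD56, fell with SOX2 knockdown. It had 3350.2 and 3509 normalized counts with SOX2 siRNA 1, 3259 and 3295 with SOX2 siRNA 2, 4630.2 and 4504 with NKX2-1 siRNA 1, 4299 and 4324 with NKX2-1 siRNA 2, and 4354, 4446 and 4421 in si-control. The 4 SOX2 siRNA libraries were the lowest of the 11. The fall was 0.39 on the log2 scale, or 1.31-fold (SE 0.03, limma, adjusted p = 7.73e-11). With NKX2-1 knockdown the log2 change was 0.01 ± 0.03, with an interval of -0.06 to 0.08, and both siRNAs together spanned the range of si-control.

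The circRMST hairpins disagreed on NCAM1. It had 7061 and 7113 normalized counts with shRNA 1, 4966 and 4926 with shRNA 2, and 6453 and 6478 in shGFP. The groups did not overlap: shRNA 1 lay above shGFP, by 0.13 ± 0.06 on the log2 scale (limma, adjusted p = 0.0496), and shRNA 2 below it, by -0.39 ± 0.06 (adjusted p = 4.14e-06). The hairpins differed by 0.52 ± 0.06 (adjusted p = 2.99e-07). The average of both was -0.13. Its adjusted p of 0.0290 became 0.0939 and 0.103 without shGFP replicate 1 and 2, 0.0578 without shRNA 1 replicate 1, and 0.0525 and 0.0618 without shRNA 2 replicate 1 and 2.

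NCAM1 was read beside 7 relatives: NCAM2, the L1 family molecules L1CAM, CHL1, NRCAM and NFASC, and the enzymes ST8SIA2 and ST8SIA4, which add polysialic acid to NCAM1. Of the list of 8, 6 were tested in the siRNA table and all 6 fell with SOX2 knockdown on average of its siRNAs (limma, adjusted p under 0.05), where 28.7% of all genes were called lower. With SOX2 siRNA 2 alone 4 of 6 were lower, and NCAM2 and ST8SIA4 were not called, at -0.14 and 0.06. On average L1CAM fell 1.66-fold, NRCAM 1.39-fold and NFASC 1.23-fold. With NKX2-1 knockdown 2 rose and 3 fell, where 18.5% of all genes were called higher and 21.4% lower. NCAM2 rose 1.48-fold and ST8SIA4 fell 1.20-fold. Of 7 tested in the shRNA table, 3 rose and 2 fell with circRMST knockdown, where 27.8% of all genes were called higher and 25.9% lower. NCAM2 rose 1.57-fold, NRCAM 1.52-fold and L1CAM 1.38-fold there, while ST8SIA4 fell 1.27-fold. The antisense RNAs NCAM1-AS1 and NCAM1-AS2 overlap the NCAM1 gene, so that their reads may be counted with it.

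CD276 (ENSG00000103855.17, chr15:73683944-73714514) encodes B7-H3, an immune checkpoint molecule of the B7 family found on many solid tumours. It had 1329.5 and 1256 normalized counts with SOX2 siRNA 1, 1332 and 1310.0 with SOX2 siRNA 2, 1673 and 1836 with NKX2-1 siRNA 1, 1629 and 1719 with NKX2-1 siRNA 2, and 1702, 1667 and 1658 in si-control. All SOX2 siRNA libraries lay below all others, and the NKX2-1 siRNA libraries overlapped si-control. The fall with SOX2 knockdown was 0.36 on the log2 scale, or 1.28-fold (SE 0.04, limma, adjusted p = 1.13e-07). With NKX2-1 knockdown the log2 change was 0.03 ± 0.04, with an interval of -0.06 to 0.12.

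With circRMST shRNA 1, CD276 had 828 and 904 normalized counts, with shRNA 2 912 and 905, and in shGFP 709 and 822. The lowest knockdown library was just above the higher shGFP library. The rise of 0.22 ± 0.08 on the log2 scale passed (limma, adjusted p = 0.0351) but kept its call in 7 of 17 alternatives. It was lost with no filter on low values (adjusted p = 0.0869), with TMM scaling (0.0506), with quantile normalization (0.146), with edgeR (adjusted p = 0.0564), with DESeq2 (0.117) or at equal totals (0.07, adjusted p = 0.513). It was also lost without shGFP replicate 1 (0.11), shRNA 1 replicate 2 (0.18), shRNA 2 replicate 1 (0.21) or shRNA 2 replicate 2 (0.22). Of the 10 B7 family genes only 3 were tested in either table. The other 2 were CD274 (PD-L1), which fell 2.39-fold with circRMST knockdown and 1.78-fold with SOX2 knockdown on average of its siRNAs, and NCR3LG1 (B7-H6), a ligand of an activating natural killer cell receptor, which rose 1.59-fold with circRMST knockdown. CD274 was low, with 24.1 to 35.8 normalized counts with circRMST shRNAs against 65.8 and 72.1 in shGFP.

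SSTR2 (ENSG00000180616.8, chr17:73165010-73176633), the somatostatin receptor to which radioligands for neuroendocrine tumours bind, was the lowest member in reads. In the siRNA table it rested on 108 reads in the SOX2 siRNA libraries, 220 in the NKX2-1 siRNA libraries and 104 in si-control. It had 25.6 and 28.3 normalized counts with SOX2 siRNA 1, 24.5 and 37.6 with SOX2 siRNA 2, 52.9 and 48.2 with NKX2-1 siRNA 1, 28.2 and 25.9 with NKX2-1 siRNA 2, and 36.2, 54.8 and 42.3 in si-control. SOX2 siRNA 2 overlapped si-control, and the NKX2-1 siRNAs lay apart from each other. The fall of 0.60 on the log2 scale with SOX2 knockdown (SE 0.22, limma, adjusted p = 0.0241) was lost without si-control replicate 2 (-0.44, adjusted p = 0.147), SOX2 siRNA 1 replicate 1 (-0.56, 0.0541) or SOX2 siRNA 2 replicate 1 (-0.45, 0.107). It was lost also with DESeq2 (adjusted p = 0.0571), with quantile normalization (0.0759) and with no filter on low values (0.0601).

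In the shRNA table SSTR2 had 2.09 and 16.6 normalized counts with circRMST shRNA 1, 1.84 and 9.30 with shRNA 2, and 53.4 and 36.1 in shGFP. These values came from 30 reads in the 4 knockdown libraries and 90 in the 2 shGFP libraries. The gene reached the mean for testing only through shGFP, the knockdown mean being 7.46. The log2 change was -2.83 ± 0.68 (limma, adjusted p = 0.00125), and without shGFP replicate 1 its adjusted p was 0.0576. The excess in shGFP was 37.3 normalized counts. For genes with no read in any siRNA library the median excess was 4.03 and the 99th percentile 38.7. SSTR2 had reads in siRNA libraries, so it is unlike those genes, and the part of that background in its change was not tested. In bulk RNA such as this, fewer cells with the RNA and less RNA per cell cannot be told apart.

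Somatostatin itself and the other receptors were read beside SSTR2. With circRMST knockdown 4 of 5 tested genes of the system were called lower, all 4 of them receptors (limma, adjusted p under 0.05). Over all genes tested 25.9% were called lower. SSTR1, SSTR4 and SSTR5, like SSTR2, reached the mean of 10 only through shGFP, so that their direction was fixed by the filter and the count supports nothing. SSTR1 had 3.14, 1.96, 0 and 1.03 normalized counts in knockdown libraries against 29.8 and 29.4 in shGFP, SSTR4 had 1.05, 0, 0.92 and 0 against 42.1 and 26.6, and SSTR5 had 0, 2.93, 1.84 and 10.3 against 33.9 and 20.9. The differences in means were 28.1 normalized counts for SSTR1, 33.9 for SSTR4 and 23.6 for SSTR5. For genes with no read in any siRNA library the median was 4.03 and the 99th percentile 38.7. SSTR1 and SSTR5 had reads in siRNA libraries, so they are unlike those genes. The part of that background in these differences was not tested. Of this list 4 genes were tested in siRNA libraries. With SOX2 knockdown 1 was called higher and 1 lower, where 27.6% of all genes were called higher and 28.7% lower. With NKX2-1 knockdown 0 were called higher and 1 lower, where the shares were 18.5% and 21.4%. SST, the peptide hormone that these receptors bind, rose 5.74-fold with SOX2 knockdown. SST had 110.3, 107, 147 and 134 normalized counts with SOX2 siRNAs, against 17.5, 17.1 and 29.6 in si-control. With NKX2-1 siRNA 1 it had 84.0 and 92.4 and with siRNA 2 6.76 and 11.1, and the NKX2-1 average was not called.

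B4GALNT1 (ENSG00000135454.13, chr12:57623409-57633201) is the N-acetylgalactosaminyltransferase that makes GM2 and GD2, and the protein itself works in the Golgi. It had 1171 and 1022 normalized counts with SOX2 siRNA 1, 1014 and 1131 with SOX2 siRNA 2, 1538 and 1678 with NKX2-1 siRNA 1, 1407 and 1353 with NKX2-1 siRNA 2, and 1098, 1021 and 1069.8 in si-control. SOX2 siRNA libraries overlapped si-control and NKX2-1 siRNA libraries lay above all of them. The log2 change was 0.03 ± 0.05 with SOX2 knockdown, with an interval of -0.08 to 0.14. It was 0.49 ± 0.05 with NKX2-1 knockdown (limma, adjusted p = 3.65e-08).

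With circRMST shRNA 1 B4GALNT1 had 1981 and 2049.8 normalized counts, with shRNA 2 1997 and 1821, and in shGFP 1434 and 1452. All knockdown libraries were higher, and the hairpins overlapped. The rise of 0.44 ± 0.06 on the log2 scale (limma, adjusted p = 4.02e-06) was called in all 17 alternatives. The transcribed pseudogene SLC26A10P overlaps the end of the B4GALNT1 gene, so that some reads may be shared.

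Ganglioside synthesis and breakdown takes further enzymes, and 21 of 22 listed genes were tested in each table. With SOX2 knockdown 2 were called higher and 11 lower, with NKX2-1 knockdown 4 higher and 4 lower, and with circRMST knockdown 8 higher and 3 lower (limma, adjusted p under 0.05). Against the shares over all genes tested, 18.5% higher and 21.4% lower, the NKX2-1 counts were near the background. The shares were 27.6% and 28.7% with SOX2 knockdown and 27.8% and 25.9% with circRMST knockdown. FUT2 passed the filter only through the control in the SOX2 and circRMST comparisons, and without it 10 and 2 of 20 were lower. ST8SIA1, the GD3 synthase that supplies the precursor of GD2, fell 2.16-fold with SOX2 knockdown, to 48.4, 70.2, 59.6 and 38.9 normalized counts against 134, 102 and 113 in si-control. FUT1, a fucosyltransferase, fell 1.99-fold with SOX2 knockdown and 1.26-fold with NKX2-1 knockdown, and ST3GAL1, a sialyltransferase, fell 1.76-fold and 1.51-fold. The lysosomal enzyme GLB1 rose 1.64-fold and the GM2 activator protein gene GM2A fell 1.92-fold with circRMST knockdown. The median log2 change of the list was -0.16 with SOX2 knockdown, 0.00 with NKX2-1 knockdown and 0.04 with circRMST knockdown.

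**Figure D3:**
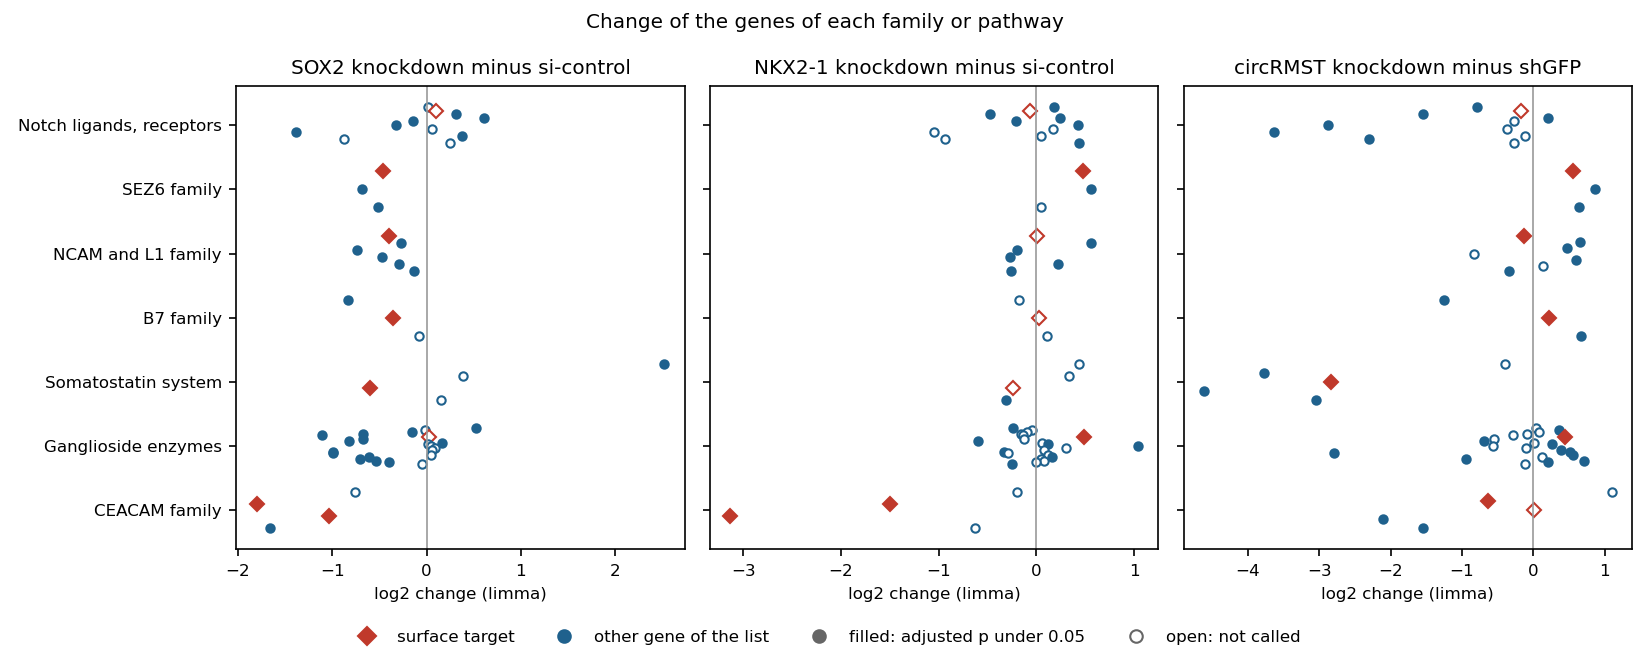
Log2 change of every tested gene of 7 families or pathways, with the surface targets as diamonds and filled symbols for adjusted p under 0.05. The horizontal scale differs between the panels. All 6 tested NCAM and L1 family genes lie below 0 with SOX2 knockdown, and all 3 SEZ6 family genes lie above 0 with circRMST knockdown.

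CEACAM5 (ENSG00000105388.15, chr19:41708626-41730519), the carcinoembryonic antigen, lies beside CEACAM6 (ENSG00000086548.8, chr19:41755530-41772211) on the long arm of chromosome 19, and both proteins are held to the membrane by a lipid anchor. The genes are close paralogs, so that reads may be split between them by the counting, and both levels are uncertain to that extent. The long non-coding RNA LOC112268252 also lies within CEACAM6, and its reads may be counted with it. Their sequences upstream of the annotated start were compared because both genes fell with SOX2 and with NKX2-1 knockdown. The 250 bases before the start are shown 5′ to 3′ (RefSeq, GRCh38.p14, plus strand, chr19:41708376-41708625 for CEACAM5 and chr19:41755280-41755529 for CEACAM6), with runs of at least 12 identical bases in their alignment in capitals.
CEACAM5: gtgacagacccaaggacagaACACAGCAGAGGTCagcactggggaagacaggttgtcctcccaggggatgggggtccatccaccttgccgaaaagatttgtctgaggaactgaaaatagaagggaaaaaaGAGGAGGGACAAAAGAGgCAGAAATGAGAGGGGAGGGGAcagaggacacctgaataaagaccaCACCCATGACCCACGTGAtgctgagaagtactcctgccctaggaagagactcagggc
CEACAM6: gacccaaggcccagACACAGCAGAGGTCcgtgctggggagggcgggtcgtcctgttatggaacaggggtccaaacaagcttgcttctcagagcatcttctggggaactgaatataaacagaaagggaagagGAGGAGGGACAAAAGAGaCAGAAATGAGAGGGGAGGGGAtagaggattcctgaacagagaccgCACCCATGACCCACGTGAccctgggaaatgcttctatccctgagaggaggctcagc

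The windows were identical at 190 of 258 aligned positions, or 73.6%, with gaps counted as differences, and held 4 capital runs of which the longest had 21 bases. Windows of CD276 and SSTR2, the other members with an entry in the promoter table, were 42.6 to 45.9% identical to those of the CEACAM genes. The E-box CACGTG, which reads the same on both strands, was found in both CEACAM windows, inside the last capital run, and in 6.35% of 35116 promoter windows of the same length. The letters AACAANG (a SOX-type motif, where N is any base), CAAGTG and CTCAAG (NKX2-1-type motifs) and CAGCTG (another E-box form) were searched on both strands. None of them was found in the CEACAM windows, and 10.4%, 9.50%, 10.4% and 14.0% of all windows held them. The SSTR2 window held CTCAAG, at base -237 relative to the start, and the CD276 windows held none of them. These are matches of letters and not measured binding sites, and no match says only that the letters are not in these bases.

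CEACAM5 had 241 and 218 normalized counts with SOX2 siRNA 1, 347 and 379.8 with SOX2 siRNA 2, 345 and 305 with NKX2-1 siRNA 1, 396 and 380.1 with NKX2-1 siRNA 2, and 1059.5, 988 and 975 in si-control. All 8 knockdown libraries lay far below si-control. The fall was 1.80 on the log2 scale with SOX2 knockdown (SE 0.07, limma, adjusted p = 9.76e-18) and 2.83-fold with NKX2-1 knockdown (SE 0.07 on the log2 scale, adjusted p = 1.38e-15). Both falls were called in all 22 alternatives. SOX2 siRNA 1 lowered it further than siRNA 2, by a difference of -0.66 ± 0.09 (adjusted p = 5.41e-06). SOX2 siRNA 2, at 346.8 and 379.8, nearly touched NKX2-1 siRNA 1, which reached 345.4, and NKX2-1 siRNA 2, which began at 380.1.

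CEACAM6 had 52.0 and 78.8 normalized counts with SOX2 siRNA 1, 185 and 144 with SOX2 siRNA 2, 22.7 and 19.2 with NKX2-1 siRNA 1, 28.2 and 23.4 with NKX2-1 siRNA 2, and 211, 230.3 and 193 in si-control. All 4 NKX2-1 siRNA libraries were below every other library, and SOX2 siRNA 2 came close to si-control without overlap. The fall was 3.13 on the log2 scale with NKX2-1 knockdown (SE 0.17, limma, adjusted p = 1.95e-14) and 1.04 with SOX2 knockdown (SE 0.17, adjusted p = 6.74e-06), each called in all 22 alternatives. The SOX2 average joins unequal values, since siRNA 1 gave -1.70 (adjusted p = 4.71e-08) and siRNA 2 gave -0.37, which was not called (adjusted p = 0.129). The siRNAs differed by -1.33 ± 0.22 (adjusted p = 5.78e-05).

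With circRMST knockdown both CEACAM genes depended on the hairpin. CEACAM5 had 505 and 628 normalized counts with shRNA 1, 254 and 255 with shRNA 2, and 549.7 and 631 in shGFP, so that shRNA 1 overlapped shGFP and shRNA 2 was below all. The log2 change was -0.07 ± 0.13 with shRNA 1 (limma, adjusted p = 0.708) and -1.21 ± 0.13 with shRNA 2 (adjusted p = 5.41e-08), a difference of 1.14 ± 0.13 (adjusted p = 6.87e-07). CEACAM6 had 146 and 119 normalized counts with shRNA 1, 31.2 and 13.4 with shRNA 2, and 54.5 and 50.3 in shGFP, with no overlap between groups. It was higher with shRNA 1, by 1.32 ± 0.36 (adjusted p = 0.00379), and lower with shRNA 2, by -1.31 ± 0.36 (adjusted p = 0.00450), a difference of 2.62 ± 0.36 (adjusted p = 1.08e-05). The average over both hairpins was 0.00 ± 0.31 (adjusted p = 0.991).

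**Figure D4:**
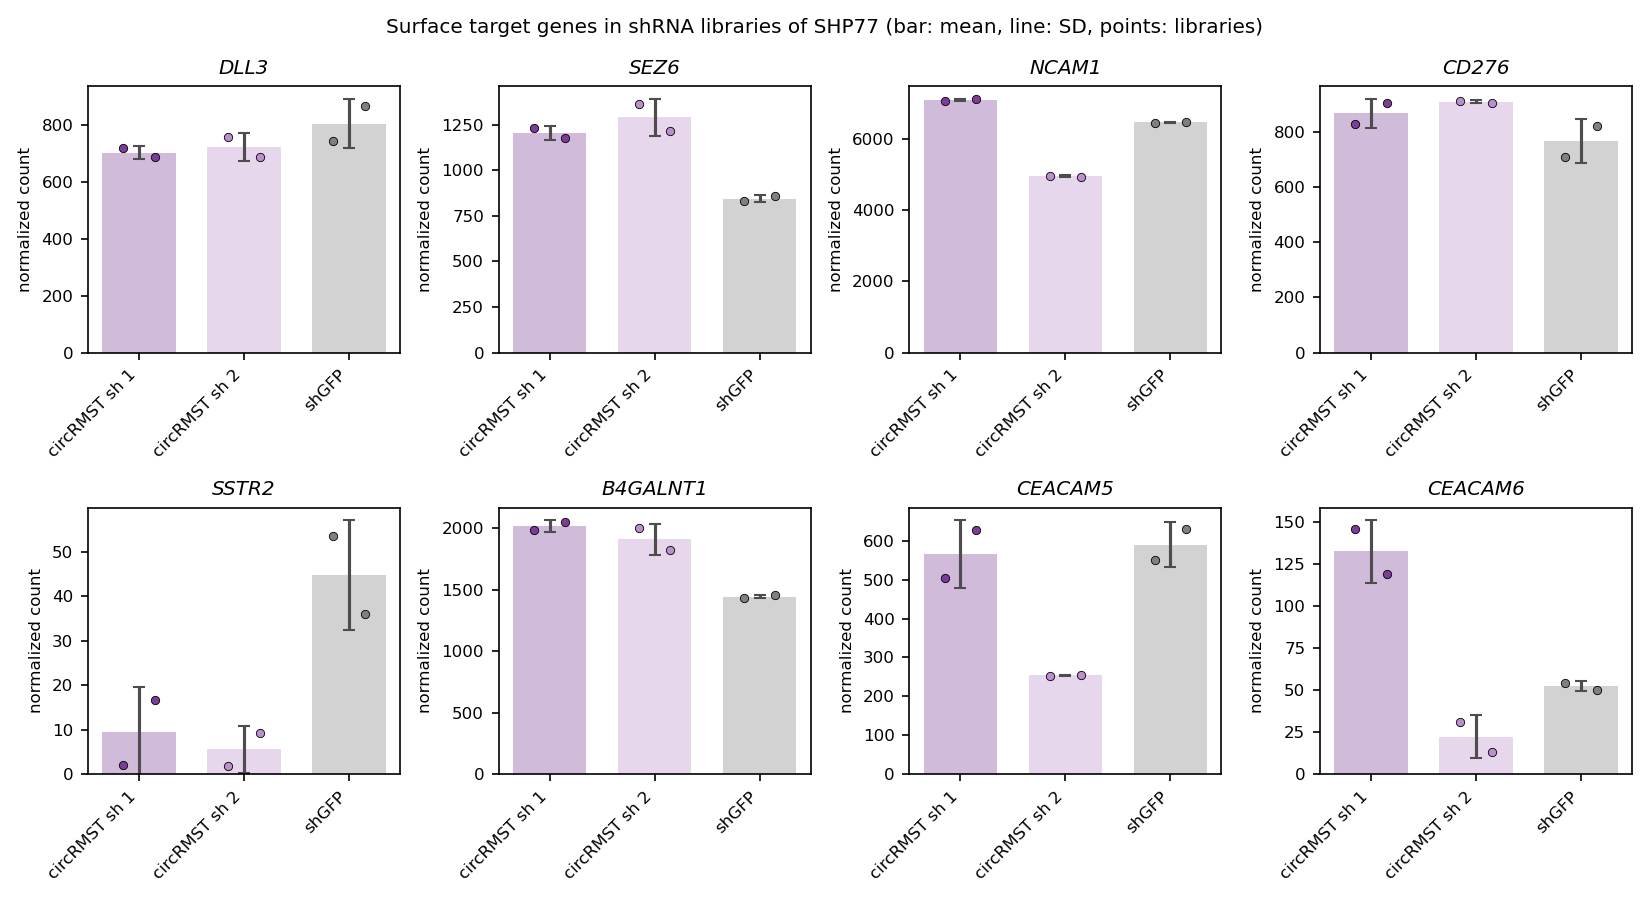
Normalized count of the 8 surface target genes in the 6 shRNA libraries, with a linear axis from 0, bars for group means, lines for the SD and points for libraries. SEZ6 and B4GALNT1 are above shGFP with both hairpins, while CEACAM6 is at 146 and 119 with shRNA 1, at 31.2 and 13.4 with shRNA 2 and at 54.5 and 50.3 in shGFP.

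Of the 12 CEACAM family genes listed, 8 were in the siRNA table and 4 were tested there. CEACAM19, which has no lipid anchor, fell 3.15-fold with SOX2 knockdown, to 14.9, 14.8, 11.7 and 12.1 normalized counts against 39.9, 52.4 and 40.9 in si-control. With CEACAM5 and CEACAM6 themselves this made 3 of 4 lower (limma, adjusted p under 0.05), where 28.7% of all genes tested were called lower. With NKX2-1 knockdown 2 of 4 were lower, CEACAM5 and CEACAM6 themselves, where the share over all genes was 21.4%. Among shRNA libraries 5 were tested and 3 were lower with circRMST knockdown, where the share was 25.9%. CEACAM16 was one of these and passed the filter only through shGFP, and without it 2 of 4 were lower, CEACAM5 and CEACAM19 with 9.43, 11.7, 18.4 and 8.26 normalized counts against 41.1 and 30.4 in shGFP. CEACAM7, a further gut family member, was at or below 4.67 normalized counts in every library of either table.

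The NKX2-1 siRNAs differed on more members than the other reagents in count, but those calls were unstable. DLL3 and CEACAM5 were lower, and SEZ6, SSTR2 and B4GALNT1 higher, with siRNA 1 than with siRNA 2, which made 5 of 8 (limma, adjusted p under 0.05) where 26.5% of all genes tested were called. The count was 0 without either NKX2-1 siRNA 2 library, 1 without NKX2-1 siRNA 1 replicate 2, and 3 without NKX2-1 siRNA 1 replicate 1 or any si-control library. Of the SOX2 siRNAs 3 of 8 members differed, where 18.5% of all genes were called, and of the circRMST hairpins 3 of 8, where 19.1% were.

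A further 32 proposed tumour surface targets were read, of which 23 were tested in each table. With SOX2 knockdown 5 were called higher and 15 lower, with NKX2-1 knockdown 6 higher and 7 lower, and with circRMST knockdown 11 higher and 6 lower (limma, adjusted p under 0.05). The shares over all genes tested were 27.6% and 28.7% with SOX2 knockdown, 18.5% and 21.4% with NKX2-1 knockdown, and 27.8% and 25.9% with circRMST knockdown. ERBB3 and MSLN with circRMST knockdown, and NECTIN4 and ERBB3 with SOX2 knockdown, passed the filter only through the control, and without them the lower counts were 4 and 13. MET, the receptor of hepatocyte growth factor, had 1102, 1149, 1184 and 1174 normalized counts with SOX2 siRNAs, 1366, 1250.3, 1014 and 987 with NKX2-1 siRNAs, and 414, 434 and 441 in si-control. ROR1, an oncofetal receptor kinase, fell 3.16-fold with SOX2 knockdown and 1.51-fold with NKX2-1 knockdown. CD47, the signal that restrains macrophages, rose 1.37-fold with NKX2-1 knockdown. CD24, a lipid-anchored sialoglycoprotein, fell 4.12-fold with circRMST knockdown, to 7496, 7147, 6543 and 6599.8 normalized counts against 29176 and 27979.8 in shGFP.

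The genes whose pattern over the 11 siRNA libraries was most like that of each member were found by Pearson's r of log2 values among 11576 protein-coding genes with a mean of at least 50. These r describe libraries that share groups and controls. SEZ6 was closest to SLC29A4 (r = 0.990), a monoamine transporter gene, and THSD4 (0.988). NCAM1 was closest to ASB4 (0.992) and PSPH (0.987), and CD276 to MYRIP (0.983) and TRIM68 (0.982). B4GALNT1 was closest to PARP3 and VPS4A (both 0.981). CEACAM5 was closest to ERRFI1 (0.986), a feedback inhibitor of the EGF receptor, and TANC2 (0.985), and CEACAM6 to TAGLN2 (0.979) and COG5 (0.974). DLL3 had the weakest nearest neighbours, CXXC5 (0.931) and SLC25A45 (0.901), and SSTR2 was below the mean used.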

How the data were processed

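The 10 ChIP-seq samples of the series were not analysed here. Each deposited table holds a signal, the normalized count of a gene in a library. The submitters' processing notes name cutadapt 2.5, STAR 2.5.2b, DESeq2 and the build hg38 for the work of the authors. Counting tool, annotation and use of strand: not given in the sources used here. Whole reads were recovered for 100% of values (within 0.05 reads) and served edgeR 4.0.16 and DESeq2 1.42.0 as alternatives. The test was limma 3.58.1 (R 4.3.3, eBayes with trend) on log2 of the normalized count plus 1, which understates changes of low genes. It used group means over all libraries of a table and genes with a mean of at least 10, 19068 for shRNA and 16750 for siRNA, with Benjamini-Hochberg adjustment over them, two-sided, at 0.05. For each knockdown the mean effect of its 2 reagents was set against the control. Tables were normalized separately, so no test crosses them. Nothing says that replicates were separate cultures, so p-values measure the spread between libraries, which may be technical.

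The members and gene lists were chosen with earlier results of these data known. List genes were named from the up to 3 largest log2 changes per list and knockdown among genes called for the average and for both reagents in 1 direction. CEACAM7, CEACAM16, NECTIN4, ST8SIA4 in the circRMST comparison, CD274 and MET in the SOX2 comparison, and SEZ6L2 and SST in the NKX2-1 comparison were named after their values were seen. The fits were tested on simulated data. Symbols were found for 98.5% of IDs, and positions are RefSeq's on GRCh38.p14. Promoter windows, held for 4 of 8 members, were aligned with Biopython 1.88. Alternatives were pseudocounts of 0.5 and 5, no filter or a mean of at least 50, equal totals, TMM, quantile normalization, edgeR, DESeq2, only the groups compared, the replicate block and each library left out. A withheld item is not reported here.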

Additional observations from a re-analysis of the deposited data

Results flagged for a closer look

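The results below differed between reagents against the same target, by the test of the difference itself (reagent 1 minus reagent 2, limma, adjusted p under 0.05). For the circRMST hairpins these were NCAM1 (log2 difference 0.52), CEACAM5 (1.14) and CEACAM6 (2.62). NCAM1 and CEACAM6 lay on opposite sides of shGFP with the hairpins. For the SOX2 siRNAs they were DLL3 (-0.27), CEACAM5 (-0.66) and CEACAM6 (-1.33). For the NKX2-1 siRNAs they were DLL3 (-0.18), SEZ6 (0.20), SSTR2 (0.88), B4GALNT1 (0.22) and CEACAM5 (-0.26), and these 5 calls fell to 0 when a library of NKX2-1 siRNA 2 was left out. CEACAM5 is the member that differed between the reagents of all 3 targets.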

How the results depend on the processing

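Over 22 alternatives in the siRNA table, CEACAM5 and CEACAM6 stayed lower with both knockdowns, SEZ6 lower with SOX2 and higher with NKX2-1 knockdown, NCAM1 and CD276 lower with SOX2 knockdown and B4GALNT1 higher with NKX2-1 knockdown. Over 17 in the shRNA table SEZ6 and B4GALNT1 stayed higher and CEACAM5 lower. All of these are averages of both reagents. CEACAM5 was not called with circRMST shRNA 1 alone, at -0.07, nor CEACAM6 with SOX2 siRNA 2 alone, at -0.37. The count of members differing between NKX2-1 siRNAs, 5, was 0 with no filter, 3 with TMM scaling, 3 with DESeq2, 2 with the replicate block, and 0 to 5 with a library left out. SOX2 knockdown minus NKX2-1 knockdown had 1 member higher in place of 2 with no filter and with DESeq2. With a library left out, 0 to 1 members were higher with SOX2 knockdown. The cause was not tested. Changes of sign occurred in values not called: CEACAM6 with circRMST knockdown was 0.00, and -0.0027 with a pseudocount of 0.5, -0.14 at equal totals, -0.011 with TMM scaling and -0.29 to 0.29 with a library left out. NCAM1 with NKX2-1 knockdown was -0.011 with quantile normalization and -7.4e-05 to 0.020 with a library left out. B4GALNT1 with SOX2 knockdown was -0.022 to 0.076 and CD276 with NKX2-1 knockdown -0.0019 to 0.065. Replicate numbers did not pair libraries: deviations of same-numbered libraries correlated at -0.042 to 0.047 in the shRNA and -0.109 to 0.024 in the siRNA table. The replicate block changed the calls of NCAM1 with circRMST knockdown (adjusted p = 0.0514) and of the NKX2-1 siRNA differences. SSTR2 rested on 30 reads in 4 circRMST shRNA libraries, which limits its precision.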
